A study of Homo sapiens with 9 samples.

Results

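The mRNA levels of 39 genes of programmed cell death were examined in treated MDA-MB-231 cells, a triple-negative human breast adenocarcinoma line of mesenchymal character. The genes are the BCL2 family, 6 caspases, the apoptosome, 2 inhibitors of apoptosis (IAPs) and the death receptors with their ligand and adaptors. They were found by matching the listed gene symbols to the Ensembl identifiers of the count table, in which all 39 of them were present among 24344 genes. Of the 39, 37 had enough counts to be tested, as did 14195 of all genes. The cells had received an injection for 48 h, which was Compound Kushen Injection (CKI), Kushen injection or Baituling injection. CKI is made from the herbs Kushen and Baituling and was given at 2.0 mg/mL, and by the labels each single-herb injection was given in the ratio it has in CKI. Total RNA of 3 libraries per injection was sequenced without strand information. Untreated cells were not analysed here, so every difference below is one between injections.

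Apoptosis runs along 2 routes that end in the same proteases. In the mitochondrial route, BH3-only proteins sense damage and engage the antiapoptotic BCL2 proteins, which otherwise hold back the effectors BAX and BAK1. Once the effectors open the outer mitochondrial membrane, cytochrome c (CYCS) leaves it and assembles APAF1 and caspase-9 into the apoptosome. In the receptor route, ligands such as TRAIL (TNFSF10) cluster death receptors at the cell surface, and the adaptor FADD recruits caspase-8. MDA-MB-231 cells carry mutant p53, a transcription factor whose normal form drives several of these genes.

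The total count was 20144628 to 23782071 per library. The mesenchymal and basal markers VIM, CD44, EGFR, CAV1, AXL and MSN lay between 162 and 2116 CPM (counts divided by library size and scaled by TMM, edgeR's trimmed mean of M values) in every library. The luminal markers ESR1, PGR and FOXA1 stayed under 1 CPM and CDH1 reached 2.82 CPM, whereas GATA3 was found at 7.69 to 24.8 CPM. Of the markers of other cells, PTPRC, CD3E and ALB reached at most 0.386 CPM and HBB had no count, which allows at most 0.166 CPM. VIM differed between the injections, with 336 to 364 CPM with CKI, 563 to 599 with Kushen and 2014 to 2116 with Baituling, and the part of this cell state in the results below was not tested. In RNA from whole cultures, fewer cells that express a gene and less RNA per cell cannot be told apart.

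In order to find how far the injections differed over the pathway, each pair was compared with edgeR's quasi-likelihood test, in which a gene passed at a Benjamini-Hochberg adjusted p under 0.05 over all genes tested. Between CKI and Kushen 23 of the 37 genes passed, 13 higher and 10 lower in CKI. This is 62.2% of the members, against 39.8% of all genes tested (19.6% higher and 20.2% lower). Between CKI and Baituling 31 genes passed, or 83.8% against 76.1% of all genes, of which 10 were higher and 21 lower in CKI (39.1% and 37.0% of all genes). Between Kushen and Baituling 30 genes passed, or 81.1% against 71.6%, and 6 were higher and 24 lower in Kushen (35.6% and 36.1% of all genes). The members were somewhat more abundant than other genes, with a median log2 CPM of 5.30 against 4.75.

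Most of these differences were modest. The threshold of the study, a log2 fold change above 1 or below -1 besides the adjusted p, was passed by 0 members between CKI and Kushen in edgeR, where 1.90% of all genes passed it. At an unadjusted p under 0.05, and in DESeq2, the number was also 0. It was passed by 3 members between CKI and Baituling (BMF higher, TNFSF10 and BOK lower, against 19.1% of all genes, 11.2% higher and 7.91% lower) and by 3 between Kushen and Baituling (TNFSF10, BBC3 and BIK, all lower, against 15.2% of all genes and 6.73% lower). The median absolute log2 fold change of the members was 0.21 between CKI and Kushen, 0.45 between CKI and Baituling and 0.40 between Kushen and Baituling. Over all genes tested it was 0.17, 0.46 and 0.41. The 3 libraries of one injection all lay above the 3 of the other for 24, 31 and 31 of the 37 members in the same order, against 49.5%, 78.3% and 73.1% of all genes tested.

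The directions against Baituling depended on the scaling of the libraries. When libraries were scaled by their totals alone (library totals), the median of all genes moved up by 0.08 on the log2 scale in CKI against Kushen, by 0.29 in CKI against Baituling and by 0.21 in Kushen against Baituling. The members that passed were then 18 higher and 7 lower in CKI against Kushen, 14 and 14 in CKI against Baituling and 12 and 16 in Kushen against Baituling. In the same order, 72%, 50% and 42.9% of the members that passed were then higher, against 69.7%, 71.6% and 67.3% of all genes passing. With TMM these shares were 56.5%, 32.3% and 20% for the members and 49.2%, 51.4% and 49.6% for all genes passing. The median log2 fold change of the members in CKI against Baituling was -0.22 with TMM and 0.07 with library totals, so the direction of this median flipped. Over all genes tested the median was 0.03 and 0.32, so the median of the members lay below it with both scalings. Values below use the TMM scale, and differences are log2 fold changes ± SE that are negative where the injection named first was lower.

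**Figure D1:**
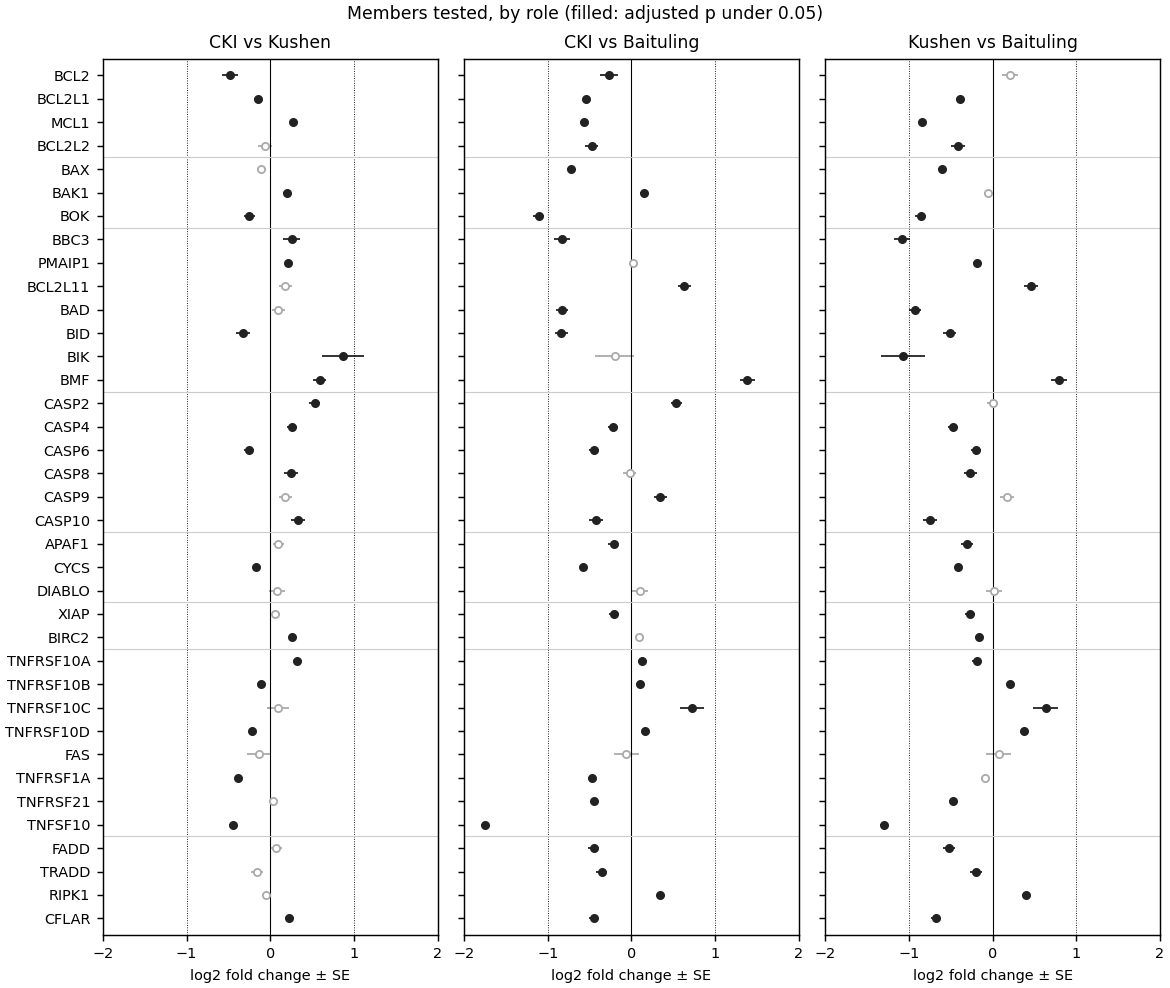
Log2 fold change with its standard error of the 37 members tested, in rows grouped by role, for the 3 comparisons (positive values are higher in the injection named first, dotted lines mark 1 and -1). Filled points passed the test. No point of the CKI against Kushen panel lies beyond the dotted lines, TNFSF10 lies farthest left against Baituling in both other panels, and BMF lies farthest right; with library totals, points against Baituling move right and 12 of those that passed with TMM or with library totals turn from negative to positive.

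Promoters are shown for the members that passed the fold threshold, as sequence context for the largest differences. RefSeq (assembly GRCh38.p14) gave an entry for 30 of the 39 members. It held 4 of the 5 such members, BIK being the exception, and the first start listed was used. Each sequence gives the 250 bases before that start, 5′ to 3′ along the gene, with matches of the motifs searched in capitals.
TNFSF10 promoter (chr3:172523431-172523680, minus strand): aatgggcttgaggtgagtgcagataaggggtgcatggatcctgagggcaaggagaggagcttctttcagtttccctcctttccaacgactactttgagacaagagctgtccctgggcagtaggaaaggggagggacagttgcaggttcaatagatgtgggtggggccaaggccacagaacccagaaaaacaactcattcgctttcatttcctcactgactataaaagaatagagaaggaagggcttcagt
BMF promoter (chr15:40108880-40109129, minus strand): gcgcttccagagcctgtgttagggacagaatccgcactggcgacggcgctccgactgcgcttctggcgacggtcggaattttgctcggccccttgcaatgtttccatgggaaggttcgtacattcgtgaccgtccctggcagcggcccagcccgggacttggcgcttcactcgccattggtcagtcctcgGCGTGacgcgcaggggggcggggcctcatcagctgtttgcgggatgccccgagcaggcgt
BOK promoter (chr2:241558495-241558744, plus strand): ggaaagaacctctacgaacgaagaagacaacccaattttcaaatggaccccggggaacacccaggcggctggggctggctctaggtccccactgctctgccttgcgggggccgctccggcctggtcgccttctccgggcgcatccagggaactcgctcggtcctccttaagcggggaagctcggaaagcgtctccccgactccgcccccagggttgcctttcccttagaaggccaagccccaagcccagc
BBC3 promoter (chr19:47232668-47232917, minus strand): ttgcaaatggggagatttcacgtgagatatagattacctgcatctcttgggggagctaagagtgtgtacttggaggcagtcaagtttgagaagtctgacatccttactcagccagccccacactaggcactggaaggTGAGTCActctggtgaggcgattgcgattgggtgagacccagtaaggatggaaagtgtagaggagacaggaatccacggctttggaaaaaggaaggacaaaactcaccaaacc
Both strands were searched for the AP-1 motif TGANTCA, the core of the aryl hydrocarbon receptor motif GCGTG and the core of the antioxidant response element TGACNNNGC. AP-1 motifs were found in 2 of the 30 member promoters (6.67%, against 6.60% of 27303 promoters), one of them the capitals in BBC3. The GCGTG core was found in 11 of 30 (36.7% against 31.9%), one of them the capitals in BMF, and the TGACNNNGC core in 6 of 30 (against 11.0% of all). A match gives only the presence of these letters, and the promoters of TNFSF10 and BOK held none in this window.

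The antiapoptotic members bind and restrain the effectors. Of the 4 tested, 1 was higher and 2 were lower in CKI than in Kushen (19.6% and 20.2% of all genes tested). All 4 were lower in CKI than in Baituling (37.0% of all genes), although under library totals BCL2 was not lower and BCL2L2 no longer passed. BCL2L1, which encodes BCL-XL, had a mean of 513 ± 15.7 CPM with CKI, 569 ± 27.6 with Kushen and 746 ± 15.7 with Baituling (SD over 3 libraries). The log2 fold change was -0.54 ± 0.04 (SE) in CKI and -0.39 ± 0.04 in Kushen against Baituling, and the difference between CKI and Kushen was -0.15 ± 0.04 (adjusted p 0.00911). The last value no longer passed under library totals (-0.07, adjusted p 0.110), without CKI replicate 1 (0.0503) or without Kushen replicate 2 (0.0580). Of the exonic bases of BCL2L1, 41.3% overlap an antisense gene, ABALON, whose reads cannot be told apart in these libraries.

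MCL1 encodes a short-lived antiapoptotic protein (chromosome 1, 150533371 to 150552214, build GRCh37). It measured 353, 344 and 353 CPM in the 3 CKI libraries, 288, 297 and 284 in the Kushen libraries and 517, 511 and 529 in the Baituling libraries. The 3 injections did not overlap, with Kushen lowest and CKI between the single injections. MCL1 was 1.79-fold lower in Kushen than in Baituling, a log2 fold change of -0.84 ± 0.04 (adjusted p 2.84e-13). In CKI it was lower than in Baituling at -0.57 ± 0.04 and higher than in Kushen by 0.27 ± 0.04 (adjusted p 6.55e-11 and 1.83e-05).

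BCL2, the founding member of the family (chromosome 18, 60790579 to 60987361), was ordered differently. It measured 6.28, 6.57 and 6.64 CPM with CKI, 8.73, 9.35 and 9.09 with Kushen and 7.32, 8.44 and 7.73 with Baituling. CKI lay below both single injections without overlap. The log2 fold change was -0.48 ± 0.10 against Kushen (adjusted p 0.000615) and -0.27 ± 0.10 against Baituling (adjusted p 0.0234), but the latter was 0.02 under library totals and missed the threshold under upper quartile scaling (adjusted p 0.0882), with a minimum of 10 counts in every library (0.0509), without CKI replicate 1 (adjusted p 0.0641) or without Baituling replicate 2 (0.0994). In Kushen against Baituling BCL2 stood at 0.21 ± 0.10 (adjusted p 0.0601), which passed under library totals (0.42) and 3 other settings. BCL2L2, which encodes BCL-W, was lower against Baituling in CKI (-0.48 ± 0.08) and in Kushen (-0.41 ± 0.08), with 24.8% of its exonic bases shared with other genes. BCL2A1 was too low for a test, with 4, 5 and 1 counts in CKI, 0, 1 and 0 in Kushen and 11, 4 and 4 in Baituling.

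The effectors form the pores in the outer mitochondrial membrane. Of the 3, BAX and BOK were lower in CKI and in Kushen than in Baituling, whereas BAK1 was not (under library totals it was higher in Kushen, at 0.16). BAX had a mean of 127 ± 2.84 CPM with CKI, 137 ± 6.25 with Kushen and 209 ± 10.4 with Baituling (SD over 3 libraries), a log2 fold change of -0.73 ± 0.05 in CKI and -0.61 ± 0.05 in Kushen against Baituling. Its difference between CKI and Kushen was -0.12 ± 0.05 (adjusted p 0.0531), and it passed under 4 other settings and without Kushen replicate 1 (adjusted p 0.0103) or Baituling replicate 1 (0.0215). BAK1 had a mean of 133 ± 6.07 CPM with CKI, 116 ± 3.73 with Kushen and 120 ± 7.57 with Baituling. CKI exceeded Kushen by 0.20 ± 0.05 (adjusted p 0.00361) and Baituling by 0.15 ± 0.05 (adjusted p 0.0108). The second difference no longer passed without CKI replicate 3 (adjusted p 0.0664), Baituling replicate 2 (0.0636) or Baituling replicate 3 (0.0759).

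BOK is an effector whose protein level is controlled by turnover at the endoplasmic reticulum (chromosome 2, 242490839 to 242513546). It measured 43.3, 45.5 and 47.5 CPM with CKI, 46.8, 56.7 and 59.0 with Kushen and 102, 94.9 and 97.3 with Baituling. The Baituling libraries lay above all others, while CKI and Kushen overlapped. BOK was 2.16-fold lower in CKI than in Baituling, a log2 fold change of -1.11 ± 0.07 (adjusted p 1.37e-11), which was -0.82 under library totals and then did not reach the fold threshold. In Kushen it was lower at -0.86 ± 0.07 (adjusted p 7.78e-10), and in CKI it was lower than in Kushen at -0.25 ± 0.07 (adjusted p 0.00680).

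The BH3-only members start the mitochondrial route, each in answer to other signals, and they did not move in one direction. Of the 7 tested, 4 were higher and 1 lower in CKI than in Kushen (19.6% and 20.2% of all genes tested). In CKI 2 were higher and 3 lower than in Baituling, near the 39.1% and 37.0% of all genes. In Kushen 2 were higher and 5 lower than in Baituling (35.6% and 36.1% of all genes). BMF and BCL2L11 were the 2 higher against Baituling in both cases.

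BMF is a BH3-only protein linked to the cytoskeleton and to loss of attachment (chromosome 15, 40380091 to 40401093). It measured 17.0, 17.9 and 16.1 CPM with CKI, 11.7, 10.5 and 11.8 with Kushen and 6.29, 6.91 and 6.35 with Baituling. The 3 injections were separated without overlap, with CKI highest and Baituling lowest. BMF was 2.61-fold higher in CKI than in Baituling, a log2 fold change of 1.38 ± 0.09 (adjusted p 4.99e-11), and higher in Kushen than in Baituling by 0.80 ± 0.10 (adjusted p 4.47e-07). Against Kushen, CKI was higher by 0.59 ± 0.08 (adjusted p 1.39e-05). Of its exonic bases 8.5% are shared with the antisense gene BMF-AS1.

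BCL2L11, which encodes BIM, had a mean of 17.9 ± 0.965 CPM with CKI, 15.8 ± 0.516 with Kushen and 11.6 ± 0.981 with Baituling (SD over 3 libraries). It was higher than in Baituling by 0.63 ± 0.08 on the log2 scale in CKI and by 0.46 ± 0.08 in Kushen. Between CKI and Kushen the difference was 0.18 ± 0.08 (adjusted p 0.0729), although the CKI libraries all lay above the Kushen libraries, and it passed under library totals (0.25). Its exons share 10.8% of their bases with MIR4435-2HG on the opposite strand.

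BBC3, or PUMA, is a classical p53 target (chromosome 19, 47724079 to 47736023). It measured 16.4, 15.6 and 16.5 CPM with CKI, 12.0, 12.8 and 16.0 with Kushen and 30.3, 25.1 and 30.9 with Baituling. Baituling stood above both other injections, which overlapped each other. BBC3 was 2.12-fold lower in Kushen than in Baituling, a log2 fold change of -1.09 ± 0.10 (adjusted p 4.98e-09) that was -0.87 under library totals, and lower in CKI at -0.83 ± 0.09 (adjusted p 1.23e-07). Its difference between CKI and Kushen was 0.25 ± 0.10 with an adjusted p of 0.0495, and it no longer passed in DESeq2 (adjusted p 0.0774) or when any of 7 libraries was left out (adjusted p up to 0.199, without Kushen replicate 1).

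BAD is a BH3-only protein held inactive by survival kinases (chromosome 11, 64037302 to 64052176). It measured 40.7, 42.1 and 46.6 CPM with CKI, 38.4, 38.7 and 44.05 with Kushen and 85.3, 70.9 and 74.3 with Baituling. CKI and Kushen overlapped below Baituling. The log2 fold change against Baituling was -0.83 ± 0.07 in CKI (adjusted p 2.13e-09) and -0.93 ± 0.07 in Kushen (adjusted p 6.44e-10). Of the exonic bases of BAD, 23.7% are shared with GPR137 on the opposite strand.

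BID, which links caspase-8 to the mitochondria once cleaved (chromosome 22, 18216904 to 18257536), measured 19.1, 20.2 and 23.4 CPM with CKI, 24.1, 26.7 and 27.9 with Kushen and 39.8, 34.9 and 37.4 with Baituling. The 3 injections were apart, with CKI lowest. BID was lower in CKI than in Baituling, with a log2 fold change of -0.84 ± 0.08 (adjusted p 8.63e-09) and than in Kushen at -0.33 ± 0.08 (adjusted p 0.00286), and lower in Kushen than in Baituling at -0.51 ± 0.08 (adjusted p 6.97e-06).

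BIK, a BH3-only protein of the endoplasmic reticulum (chromosome 22, 43506756 to 43525718), was measured on few reads. It had 39, 34 and 35 counts in CKI, 14, 25 and 17 in Kushen and 31, 33 and 29 in Baituling, that is 1.53, 1.37 and 1.38 CPM, then 0.563, 1.03 and 0.754, then 1.51, 1.81 and 1.60. Kushen lay below both others, and CKI and Baituling overlapped. BIK was lower in Kushen than in Baituling at -1.06 ± 0.26 (adjusted p 0.00125). This value did not reach the fold threshold under library totals (-0.85), under upper quartile scaling, without Kushen replicate 1 (-0.87) or without Baituling replicate 2 (-0.99). CKI exceeded Kushen by 0.87 ± 0.26 (adjusted p 0.0111). That difference was 0.67 with an adjusted p of 0.0703 without Kushen replicate 1, and 1.12, past the fold threshold, without Kushen replicate 2.

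PMAIP1, or NOXA, which binds MCL1, had a mean of 114 ± 3.88 CPM with CKI, 98.0 ± 1.38 with Kushen and 112 ± 2.45 with Baituling (SD over 3 libraries). CKI exceeded Kushen by 0.21 ± 0.04 (adjusted p 0.000566). The level was lower in Kushen than in Baituling at -0.19 ± 0.04 (adjusted p 0.000593), a value that was 0.02 with library totals. In CKI against Baituling it was 0.02 ± 0.04 (adjusted p 0.64), but 0.31 with library totals (adjusted p 1.12e-06). With that scaling PMAIP1 joined the BH3-only members higher in CKI than in Baituling. HRK had 0 to 2 counts per library and was not tested.

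**Figure D2:**
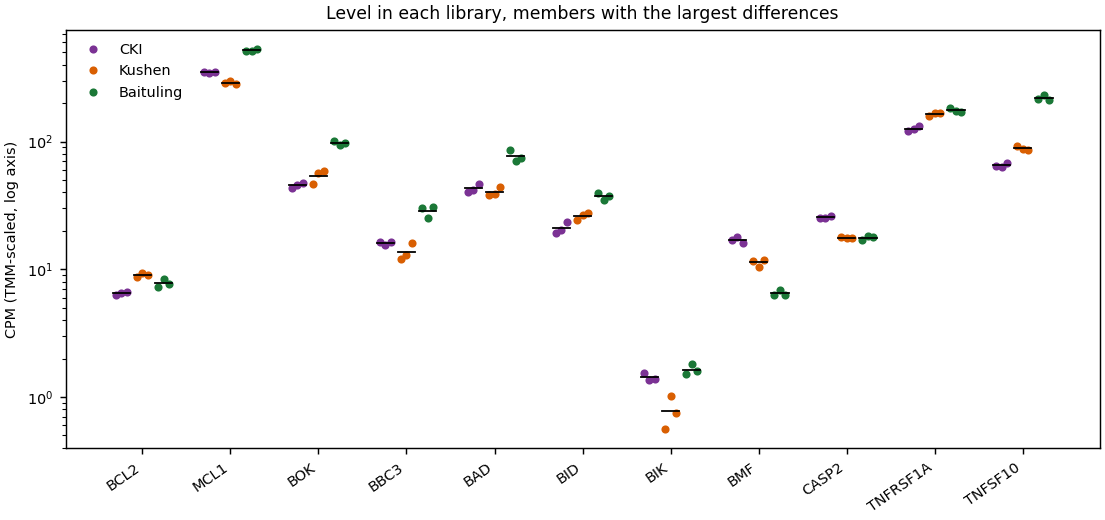
TMM-scaled CPM on a log axis in each of the 9 libraries for the 11 members with the largest differences, by injection, with a bar at the mean of 3 libraries. TNFSF10, BOK, BBC3, BAD, BID and MCL1 are highest in Baituling, BMF and CASP2 are highest in CKI, and BIK is lowest in Kushen; with library totals the means against Baituling shift upward by 0.21 to 0.29 on the log2 scale, and these orders of Baituling against both others remain.

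The caspases carry out the cleavage that kills the cell. Between CKI and Kushen 4 of 6 were higher and 1 lower in CKI (19.6% and 20.2% of all genes tested). Against Baituling 2 were higher and 3 lower in CKI (39.1% and 37.0% of all genes). In Kushen 0 were higher and 4 lower than in Baituling in edgeR (35.6% and 36.1% of all genes), and 0 were higher at an unadjusted p under 0.05 or in DESeq2. That 0 depended on other settings: CASP9, at 0.17 ± 0.08 in Kushen against Baituling (adjusted p 0.0741), passed under library totals (0.38), upper quartile scaling (0.24), a minimum of 10 counts in every library (0.20) and without Kushen replicate 2 (0.22, adjusted p 0.0311), and CASP2 passed under library totals. CASP2, an initiator linked to DNA damage and centrosome number (chromosome 7, 142985308 to 143004789), stood apart in CKI. It measured 25.4, 25.4 and 26.1 CPM with CKI, 18.1, 17.5 and 17.7 with Kushen and 16.9, 18.3 and 18.0 with Baituling. CKI lay above both single injections, which overlapped each other. The log2 fold change was 0.53 ± 0.06 against Kushen (adjusted p 2.40e-06) and 0.53 ± 0.07 against Baituling (adjusted p 3.52e-07). Between Kushen and Baituling it was 0.00 ± 0.07 (adjusted p 0.970), but 0.22 and past the test under library totals.

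CASP10 and CASP4 were highest in Baituling and lowest in Kushen. CASP10, an initiator caspase of death receptors, had a mean of 9.92 ± 0.0733 CPM with CKI, 7.90 ± 0.412 with Kushen and 13.3 ± 0.447 with Baituling (SD over 3 libraries). It was lower in Kushen than in Baituling at -0.75 ± 0.09 (adjusted p 2.33e-07) and higher in CKI than in Kushen (0.33 ± 0.09, adjusted p 0.00543). CASP4, an inflammatory caspase that senses lipopolysaccharide, was lower in Kushen than in Baituling at -0.48 ± 0.06 and higher in CKI than in Kushen by 0.26 ± 0.06. The log2 fold change of CKI against Baituling was -0.22 ± 0.06, and 0.07 with library totals.

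CASP8, the initiator recruited by FADD, had a mean of 27.2 ± 0.939 CPM with CKI, 22.9 ± 0.774 with Kushen and 27.5 ± 3.76 with Baituling. CKI exceeded Kushen by 0.25 ± 0.08 (adjusted p 0.0182), which no longer passed without CKI replicate 2 (0.0513), CKI replicate 3 (0.0655) or Kushen replicate 2 (0.0667). In Kushen it was lower than in Baituling at -0.26 ± 0.08 (adjusted p 0.00677), which no longer passed under library totals (-0.05) or without Baituling replicate 1 (adjusted p 0.0715). CASP9, the initiator of the apoptosome, was higher in CKI than in Baituling by 0.35 ± 0.08 (adjusted p 0.000774). CASP6, an executioner that cleaves lamin A, went the other way: it was lowest in CKI, at -0.25 ± 0.06 against Kushen and at -0.45 ± 0.06 against Baituling. It was lower in Kushen than in Baituling at -0.20 ± 0.06, a value that was 0.01 with library totals.

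Of the apoptosome and the proteins released with it, CYCS was the most abundant and was lowest in CKI. It had a mean of 216 ± 4.72 CPM with CKI, 243 ± 5.58 with Kushen and 322 ± 12.0 with Baituling, a log2 fold change of -0.57 ± 0.04 in CKI and -0.41 ± 0.04 in Kushen against Baituling and of -0.17 ± 0.04 in CKI against Kushen (adjusted p 0.00365), of which the last was -0.09 and no longer passed with library totals (adjusted p 0.0637). APAF1, the scaffold of the apoptosome, was lower in Kushen than in Baituling at -0.31 ± 0.07, which no longer passed with library totals (-0.09, adjusted p 0.224). In CKI against Baituling the log2 fold change was -0.21 ± 0.07, and 0.08 with library totals, and it no longer passed without CKI replicate 2 (adjusted p 0.0518) or Baituling replicate 1 (0.0684). DIABLO, whose protein frees caspases from the IAPs, passed in none of the 3 comparisons, with log2 fold changes of 0.08 ± 0.09, 0.10 ± 0.10 and 0.02 ± 0.10, but passed against Baituling under library totals (0.39 in CKI and 0.23 in Kushen). Of its exonic bases 32.3% are shared with other genes.

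The IAPs block caspases or mark signalling proteins with ubiquitin. XIAP was lower than in Baituling at -0.27 ± 0.06 in Kushen and at -0.21 ± 0.06 in CKI, but neither passed with library totals (-0.06 and 0.08). BIRC2, or cIAP1, had a mean of 119 ± 2.81 CPM with CKI, 99.4 ± 3.17 with Kushen and 112 ± 1.70 with Baituling (SD over 3 libraries). CKI exceeded Kushen by 0.26 ± 0.04 (adjusted p 7.99e-05). The level was lower in Kushen than in Baituling at -0.17 ± 0.04, a value that was 0.05 with library totals. In CKI against Baituling it was 0.09 ± 0.04 (adjusted p 0.052), and the libraries did not overlap. This difference passed under library totals (0.38), upper quartile scaling (0.16) and other settings, and without Kushen replicate 1 or Kushen replicate 3.

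TNFSF10, the ligand TRAIL, had the largest difference of all members (chromosome 3, 172223298 to 172241265). It measured 64.3, 62.9 and 68.4 CPM with CKI, 92.4, 88.0 and 86.8 with Kushen and 217, 230.2 and 210.0 with Baituling. The 3 injections were far apart, with CKI lowest and Baituling highest. TNFSF10 was 3.36-fold lower in CKI than in Baituling, a log2 fold change of -1.75 ± 0.05 (adjusted p 1.12e-16), and 2.46-fold lower in Kushen, at -1.30 ± 0.05 (adjusted p 9.02e-15). In CKI it was lower than in Kushen at -0.45 ± 0.05 (adjusted p 9.94e-07). These values did not depend on the scaling for their direction, being -1.46 and -1.09 against Baituling under library totals.

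Against Baituling, the TRAIL receptors among the members differed less than TNFSF10, by at most 0.72 ± 0.15 (TNFRSF10C in CKI). Between CKI and Kushen the sizes were closer, with TNFRSF10A at 0.32 ± 0.05 and TNFSF10 at -0.45 ± 0.05. TNFRSF10B, or DR5, which carries a death domain, had a mean of 288 ± 3.95 CPM with CKI, 311 ± 3.45 with Kushen and 269 ± 3.45 with Baituling (SD over 3 libraries). It was higher in Kushen than in Baituling by 0.21 ± 0.04 (adjusted p 5.94e-05). In CKI it was higher than in Baituling by 0.10 ± 0.04 and lower than in Kushen at -0.11 ± 0.04 (adjusted p 0.0240 and 0.0244), and both missed the threshold in other fits, the second under library totals (-0.04), the first in DESeq2 (adjusted p 0.0548), and each when single libraries were left out (adjusted p 0.0864 without CKI replicate 2 against Baituling, 0.0662 without CKI replicate 3, 0.0994 without Baituling replicate 3, and 0.0878 without CKI replicate 1, 0.0577 without CKI replicate 2 and 0.0736 without Kushen replicate 2 against Kushen).

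The membrane decoy receptors TNFRSF10C and TNFRSF10D, which bind TRAIL without a working death domain, were lowest in Baituling. TNFRSF10D was higher than in Baituling by 0.38 ± 0.04 in Kushen and by 0.16 ± 0.04 in CKI. TNFRSF10C was higher by 0.64 ± 0.15 in Kushen and by 0.72 ± 0.15 in CKI, on 54 to 144 counts per library and with 33.0% of its exonic bases shared with other genes. TNFRSF10A, or DR4, was higher in CKI than in Kushen (0.32 ± 0.05, adjusted p 9.08e-05). It was lower in Kushen than in Baituling at -0.19 ± 0.05, a value that was 0.02 with library totals. Its value in CKI against Baituling, 0.13 ± 0.05 (adjusted p 0.0310), no longer passed when any of CKI replicate 2, CKI replicate 3 or a Baituling library was left out (adjusted p 0.0643 to 0.119), nor in DESeq2 (0.112). The 4 receptor genes lie side by side on chromosome 8 and resemble each other, so reads that fit several of them are uncertain.

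TNFRSF1A, the main receptor for TNF (chromosome 12, 6437923 to 6451280), was lowest in CKI. It measured 120.2, 125 and 133 CPM with CKI, 160.1, 167 and 166 with Kushen and 182, 173 and 171 with Baituling. CKI lay below both others without overlap, and Kushen lay just below Baituling. The log2 fold change of CKI was -0.38 ± 0.05 against Kushen (adjusted p 2.95e-06) and -0.48 ± 0.05 against Baituling (adjusted p 1.52e-08). That of Kushen against Baituling was -0.09 ± 0.05 (adjusted p 0.0750), but 0.12 and past the test under library totals. TNFRSF21, or DR6, was lower than in Baituling at -0.45 ± 0.04 in CKI and at -0.48 ± 0.04 in Kushen. FAS, the receptor for FAS ligand, stood at only 4.78 to 5.24 CPM on average and passed in none of the 3 comparisons (log2 fold changes of -0.13 ± 0.14, -0.06 ± 0.15 and 0.07 ± 0.15).

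The adaptors connect the receptors to caspase-8 or to survival signals. CFLAR, or cFLIP, the caspase-8 homologue that blocks it at the receptor, had a mean of 73.1 ± 3.62 CPM with CKI, 62.4 ± 3.68 with Kushen and 99.9 ± 3.90 with Baituling (SD over 3 libraries). It was lower than in Baituling at -0.45 ± 0.05 in CKI and at -0.68 ± 0.05 in Kushen, and higher in CKI than in Kushen (0.23 ± 0.05, adjusted p 0.00227). FADD was lower than in Baituling at -0.45 ± 0.07 in CKI and at -0.52 ± 0.07 in Kushen, with 59.2% of its exonic bases shared with a gene on the opposite strand. TRADD, the adaptor of TNFRSF1A, was lower in CKI than in Baituling at -0.36 ± 0.07, and at -0.20 ± 0.07 in Kushen. Neither passed under library totals (-0.07 and 0.01), and the value in Kushen no longer passed without Kushen replicate 1 (adjusted p 0.107) or Baituling replicate 1 (0.0713). RIPK1, the kinase that relays survival or death signals, was higher than in Baituling by 0.35 ± 0.05 in CKI and by 0.40 ± 0.05 in Kushen.

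The place of the combined injection was examined to see whether CKI lay between its parts. By mean CPM, CKI lay between Kushen and Baituling for 15 of 37 members, above both for 10 and below both for 12, against 33.8%, 34.8% and 31.5% of all genes tested. Counting only members in which CKI passed the test against each single injection, 4 lay above both (BAK1, BMF, CASP2 and TNFRSF10A), 7 between (MCL1, BBC3, CASP4, CASP10, TNFRSF10B, TNFRSF10D and CFLAR) and 8 below both (BCL2, BCL2L1, BOK, BID, CASP6, CYCS, TNFRSF1A and TNFSF10). Of all genes tested, 13.0% lay above, 6.49% between and 13.7% below by the same rule. Under library totals these numbers were 9, 6 and 5. The number above both was 2 when CKI replicate 3, Baituling replicate 2 or Baituling replicate 3 was left out. The orders found most often were Baituling above CKI above Kushen (12 members) and Baituling above Kushen above CKI (10 members). Shares of these orders over all genes were not calculated, so these counts only describe the members on the TMM scale. Under library totals the first order did not hold for CASP4, CASP8, APAF1 and XIAP, nor the second for CASP6, TNFRSF1A and TRADD. The comparisons with CKI share its libraries, so their values for a member are not independent.

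Levels of different genes were compared per length, as RPKM (CPM divided by the exon length in kilobases). Among the antiapoptotic members, BCL2L1 stood at 122 RPKM with CKI, 135 with Kushen and 178 with Baituling, and MCL1 at 56.2, 46.5 and 83.4, whereas BCL2 stood at 0.515, 0.718 and 0.621. BCL2L1 and MCL1 together took 96.6% ± 0.234 of the summed antiapoptotic level with CKI, 96.5% ± 0.470 with Kushen and 96.8% ± 0.260 with Baituling (SD over 3 libraries), and the SDs of these shares overlapped. The summed antiapoptotic level was 185 ± 3.57, 189 ± 6.54 and 269.8 ± 3.46 RPKM in the same order, and that of the effectors 126 ± 4.41, 126 ± 6.28 and 172 ± 8.49. The summed level of BH3-only members was 94.3 ± 3.44, 84.0 ± 3.497 and 118 ± 6.39 RPKM, of which PMAIP1 was the largest part at 44.9 to 52.0. These sums are on the TMM scale only. Library totals move all genes against Baituling up by 0.29 on the log2 scale in CKI and 0.21 in Kushen. The gaps of the sums to Baituling are then narrower. That of the BH3-only members in CKI (94.3 against 118 RPKM) is little larger than this shift. Among the receptors, TNFRSF21 (70.8 to 98.4 RPKM) and TNFRSF10B (53.7 to 62.1) were the most abundant and FAS (1.34 to 1.47) the least. The lengths come from the annotation and not from the transcripts these cells use, so order between genes close in level is uncertain.

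**Figure D3:**
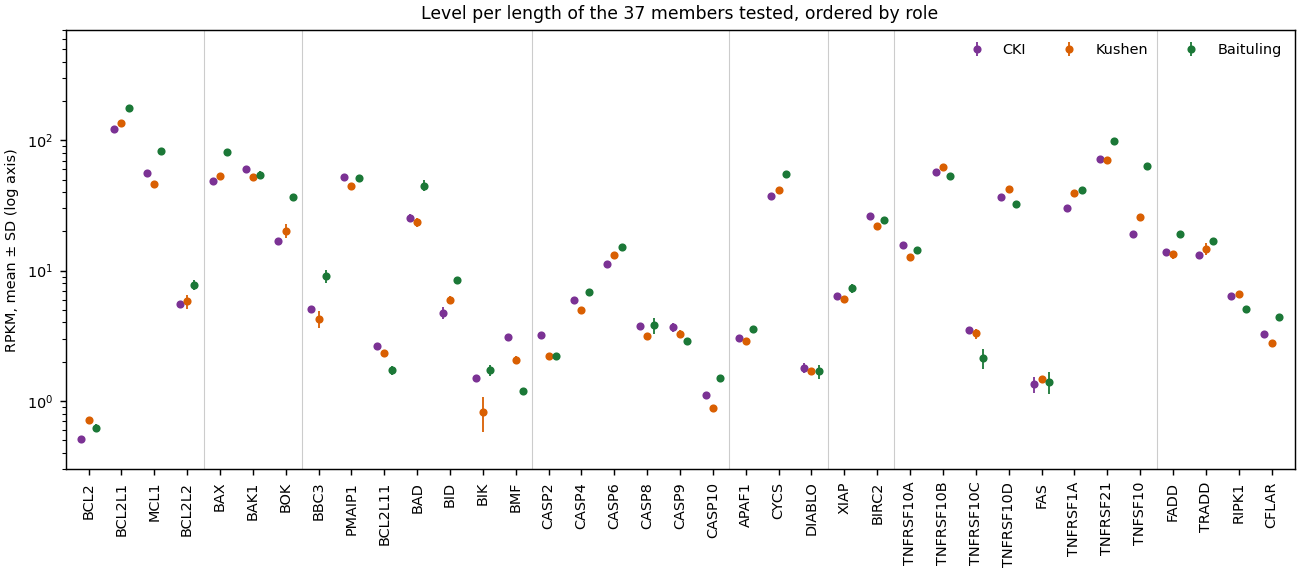
Mean RPKM with SD (n = 3 libraries) on a log axis of the 37 members tested, grouped by role along the x axis and coloured by injection. BCL2L1 is the highest member under each injection, with 122 to 178 RPKM, and BCL2 the lowest, with 0.515 to 0.718 RPKM. The last rank depends on the length used. For BCL2 all exons give 12612 bases and the longest transcript 7461, while both are 951 for BIK (0.821 RPKM in Kushen). With the longest transcript BCL2 lies above BIK in Kushen.

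Genes of the pathway outside the 39 were described from 5 lists with 65 genes tested. Between CKI and Kushen 16 were higher and 7 lower in CKI, the higher ones including 6 of 18 genes of TNF receptor signalling and 6 of 15 p53 targets. This is 35.4% of the 65, against 39.8% of all genes tested. Against Baituling 19 were higher and 30 lower in CKI (75.4%, against 76.1% of all genes), and 17 were higher and 32 lower in Kushen (75.4%, against 71.6%). With library totals the numbers were 32 and 17 in CKI and 27 and 24 in Kushen, so the balance of directions depended on the scaling. Of all genes that passed, 71.6% were then higher in CKI and 67.3% in Kushen than in Baituling, against 51.4% and 49.6% with TMM.

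Among other caspases and caspase substrates, 10 of 12 genes passed in CKI against Baituling (83.3%, against 76.1% of all genes), 3 higher and 7 lower. LMNB1, a nuclear lamin cleaved in apoptosis, was lower than in Baituling at -2.88 ± 0.05 in CKI and at -2.26 ± 0.05 in Kushen. GSDMD, the pore protein of pyroptosis, was lower at -1.27 ± 0.06 and at -0.85 ± 0.06. CASP1, which activates GSDMD and interleukin-1, was lower at -0.50 ± 0.14 and at -0.69 ± 0.14, and ROCK1, a kinase cut by caspases, was higher by 0.50 ± 0.05 and by 0.47 ± 0.05.

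BIRC3 and BIRC5, IAPs outside the 39, went in opposite directions in CKI. BIRC3, or cIAP2, a target of NF-kB, had a mean of 113 CPM with CKI, 58.5 with Kushen and 68.1 with Baituling. CKI exceeded Kushen by 0.95 ± 0.05 (adjusted p 5.87e-11) and Baituling by 0.73 ± 0.05. BIRC5, or survivin, which acts in mitosis, had a mean of 16.3 CPM with CKI, 18.6 with Kushen and 74.8 with Baituling, and was lower than in Baituling at -2.19 ± 0.06 in CKI and at -2.01 ± 0.06 in Kushen. BIRC6, a giant IAP with ubiquitin-conjugating activity, was higher than in Baituling by 0.32 ± 0.06 and by 0.44 ± 0.06.

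In TNF receptor signalling, 13 of 18 genes passed in CKI against Baituling (72.2%, against 76.1% of all genes), 5 higher and 8 lower. The TNF receptor TNFRSF1B was higher by 1.69 ± 0.07 in CKI and by 1.22 ± 0.07 in Kushen against Baituling, whereas TNFRSF1A was lower in CKI. Lower in both were MLKL, the executioner of necroptosis (-1.21 ± 0.10 in CKI and -1.18 ± 0.10 in Kushen), TNFRSF11B, a soluble decoy for TRAIL (-1.18 ± 0.13 and -1.19 ± 0.13), and FAIM, an inhibitor of FAS signalling (-2.30 ± 0.15 and -2.04 ± 0.15 on a mean of 1.87 CPM in CKI and 2.23 in Kushen).

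The p53 target list was of 15 genes, of which 6 were higher and 1 lower in CKI than in Kushen (46.7%, against 39.8% of all genes). GDF15, a stress-induced cytokine, had a mean of 197 CPM with CKI, 67.4 with Kushen and 43.6 with Baituling, and was higher in CKI than in Kushen (1.54 ± 0.07, adjusted p 1.30e-11). TP53INP1 was higher than in Baituling by 0.99 ± 0.08 in CKI and by 0.83 ± 0.09 in Kushen. FDXR and DDB2 were lower than in Baituling, at -1.05 ± 0.08 and -0.70 ± 0.08 in CKI and at -1.05 ± 0.08 and -0.95 ± 0.08 in Kushen. Of BCL2-related and mitochondrial genes, 11 of 16 passed in CKI against Baituling (68.8%, against 76.1% of all genes), 2 higher and 9 lower. They included MOAP1, a partner of BAX (0.58 ± 0.05), BAG1, a BCL2-binding co-chaperone (-0.63 ± 0.04), and ENDOG, a mitochondrial nuclease (-0.51 ± 0.10). BCL2L12 was higher in CKI than in Kushen at 0.44 (adjusted p 4.05e-06).

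**Figure D4:**
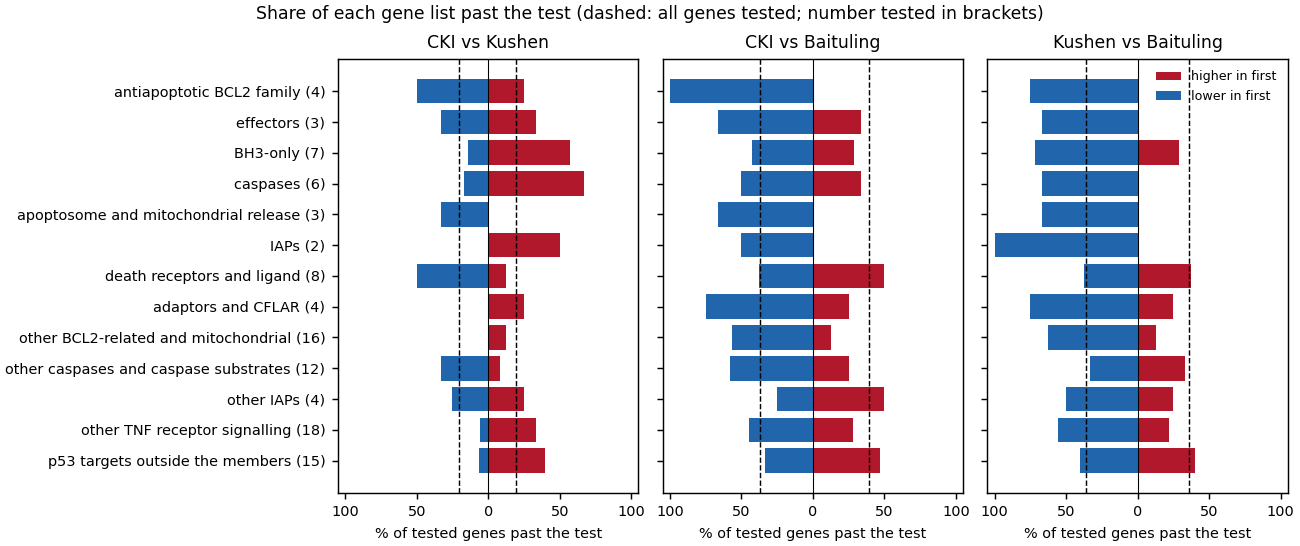
Percentage of the tested genes of each list that passed the test, drawn to the right where higher and to the left where lower in the injection named first, with the percentages over all 14195 genes tested as dashed lines. All 4 tested antiapoptotic members were lower in CKI than in Baituling (37.0% of all genes), although for BCL2 that direction flipped under library totals. Of 6 caspases, 4 were higher in CKI than in Kushen (19.6% of all genes).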

How the data were processed

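RNA-seq of total RNA from MDA-MB-231 cells treated with 3 injections (3 libraries each) was analysed. The authors trimmed the reads with Trim Galore 0.3.7 and aligned them with STAR 2.5.3a to hg19, and the deposited table holds raw counts per gene. The counting program and annotation are not given in the sources used here. Of 24566 rows, 222 repeated an Ensembl gene with identical counts, and each gene was kept a single time (24344 genes). Columns were assigned by the initial of the injection and the replicate number. Symbols and exon lengths came from GENCODE on GRCh37, the same assembly as hg19, with names found for 24224 genes. Genes were kept by filterByExpr of edgeR 4.0.16 in R 4.3.3 (minimum count 10, minimum total 15), scaled by TMM (factors 0.877 to 1.10) and tested in 1 quasi-likelihood fit of all 9 libraries with group as the only term. The two-sided p-values were adjusted by Benjamini-Hochberg across 14195 genes, and standard errors are the fold change divided by the root of F. The common biological coefficient of variation was 4.53%. The test was checked on simulated counts. An exact permutation test of 3 against 3 libraries cannot give a p below 0.1 and was not used.

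Members and lists were chosen with earlier results of these data known. By the rule for named genes, values in every library are given for members among the 6 largest absolute log2 fold changes past the test in a comparison with a log2 CPM averaging 0 or more, and up to 4 genes, those with the largest change past the test, from each other list. The values of BCL2L1, BAX and other members were added after their values were seen. Alternatives were other scalings (library totals, RLE, upper quartile), other filters, DESeq2 1.42.0, only 2 groups, a replicate block and each library left out. The labels do not say whether libraries of a group came from separate cultures, so p-values measure the spread between these libraries, which may be technical. A chi-square per gene of 1.70 to 6.85 within groups showed no repeated library. Counting error is smallest for abundant members such as BCL2L1 and MCL1. It is not negligible for members with few counts such as BCL2, BMF, TNFRSF10C and FAS, and it is large for BIK, BCL2A1 and HRK.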

Additional observations from a re-analysis of the deposited data

How the results depend on the processing

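Scaling moved the results most. Under library totals the number of members past the test and the fold threshold was 2 higher and 1 lower in CKI against Baituling and 1 higher and 1 lower in Kushen against Baituling, and 12 members in place of 6 were higher in Kushen than in Baituling. Other pathway genes past the test were then 32 higher and 17 lower in CKI against Baituling and 27 higher and 24 lower in Kushen against Baituling. Of all genes past the test, 71.6% and 67.3% were then higher in these 2 comparisons (51.4% and 49.6% with TMM). CKI then lay above both single injections for 9 members and below both for 5. Among members past the test with TMM or with library totals, log2 fold changes that turned sign under library totals were, in CKI against Baituling, BCL2 (0.019), CASP4 (0.068), CASP8 (0.269), APAF1 (0.077) and XIAP (0.077). In Kushen against Baituling they were BAK1 (0.164), PMAIP1 (0.021), CASP6 (0.014), BIRC2 (0.046), TNFRSF10A (0.024), TNFRSF1A (0.119) and TRADD (0.014). These follow the shift of all genes that this scaling makes.

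With single libraries left out, the members past the test and the fold threshold in CKI against Kushen were 0 to 1 higher, the other pathway genes lower in CKI than in Kushen were 6 to 11, and the members with CKI above both were 2 to 5. A fit with the replicate block gave 13 members higher and 10 lower in CKI against Kushen, 10 and 21 in CKI against Baituling and 6 and 24 in Kushen against Baituling, and changed the call of no member. Replicate numbers showed no consistent pairing: deviations of same-numbered libraries correlated at -0.27 to 0.26, and not every library correlated best with its own number. With 3 libraries a group, this check cannot decide whether libraries of the same number shared a batch. With the longest transcript in place of all exons, BCL2L1 and MCL1 took 96.5%, 96.3% and 96.6% of the antiapoptotic level with CKI, Kushen and Baituling. Depth limited BIK, TNFRSF10C and FAS, which had at most 144 counts in any library.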
